A study of Mus musculus with 90 samples.

Results

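The genotype effect of hepatocyte GR loss was measured at ZT0 on caloric restriction in 6 of the 90 livers of the series, 3 from WT and 3 from GR LKO mice, taken by their labels for diet, time and genotype. All were adult male C57BL/6J mice whose GR gene (*Nr3c1*) carries loxP sites. GR LKO mice also carry Cre recombinase under the albumin promoter, which is active in hepatocytes, so that other liver cells keep the gene. WT mice are their floxed controls without Cre. Calories had been reduced stepwise to 40% less than normal intake, and food was given at lights off (ZT12, 6 p.m.). ZT0 is lights on, at 6 a.m., the end of the night. The comparison asks which liver transcripts depended on hepatocyte GR at that time of day. Beside it stand the same comparison at the 5 other time points on caloric restriction (ZT4 to ZT20, each 4 h apart, 3 mice per genotype) and at ZT0 on the control diet (3 mice per genotype). On the control diet chow was freely available until the final week, when it was given at night only.

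GR is a nuclear receptor that binds glucocorticoids, the adrenal hormones whose level in mice peaks before the active night and is low at its end. Bound by hormone, it enters the nucleus and raises or lowers the transcription of its targets, among them genes of gluconeogenesis, amino acid breakdown and lipid handling in the liver. It also shares many of its binding regions with other hepatocyte factors.

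Poly(A) RNA of each liver was sequenced as 1 library per mouse, so the p-values below measure the spread between mice. The WT libraries held 20594960, 18414567 and 17486656 estimated counts and the GR LKO libraries 17926116, 16920526 and 16599710. Levels are counts per 1000000 after scaling between libraries (CPM), and 3 counts in a library correspond to 0.149 to 0.180 CPM. Between 20.4% and 22.1% of a library's counts fell on its 10 most abundant genes. GR LKO mouse 1 stood apart from its group: the chi-square per degree of freedom was 43.1 against GR LKO mouse 2 and 45.1 against mouse 3, while mice 2 and 3 gave 14.2 between them and the 3 WT pairs 19.2 to 24.5. *Bcl6*, a repressor of transcription that shapes the male liver, read 4.46, 12.5 and 7.07 CPM in the WT livers and 99.6, 7.90 and 6.28 CPM in those of GR LKO mice. Mouse 1 was far above the other 5 in this gene.

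The livers carried the transcripts of hepatocytes in all 6 libraries. Summed over 8 hepatocyte markers the level was 142574, 146424 and 146699 CPM in the WT livers and 128640.0, 129531 and 123079 CPM in those of GR LKO mice, and the groups did not overlap. *Alb* (albumin), the most abundant of them, averaged 95233 CPM over the WT livers and 86244 CPM over those of GR LKO mice, and the edgeR quasi-likelihood test with Benjamini-Hochberg adjustment called 0 of the 8 markers. DESeq2 called 2 of the 8, *Apoa1* and *Cps1*, both lower in GR LKO, and 3 of the 8 had an unadjusted p under 0.05. Over all genes tested, edgeR called 0.502%, DESeq2 called 3.53% and 13.2% had an unadjusted p under 0.05. In whole liver, fewer cells of a type and less RNA per cell cannot be told apart. Erythrocyte markers summed to 324, 1295 and 422 CPM in the WT livers and 617, 4021 and 441 CPM in those of GR LKO mice, with *Hbb-bs* as the most abundant gene. GR LKO mouse 2 had the highest sum. Adipocyte markers summed to 6.44, 10.1 and 7.31 CPM in the WT livers and 12.4, 28.4 and 12.6 CPM in those of GR LKO mice, without overlap, and *Fabp4* was the most abundant of the 7. The defining adipocyte genes *Plin1* and *Lep* had no count in any library, and *Adipoq* was at 0 except for 1.43 CPM in GR LKO mouse 2. *Cfd* (adipsin), of the same list, had no count in WT and read 2.97, 4.18 and 0.691 CPM in GR LKO livers, short of the edgeR threshold (adjusted p = 0.0964) and called by DESeq2. Neutrophil markers summed to 1.34, 0.781 and 1.32 CPM in the WT livers and 2.09, 4.18 and 1.79 CPM in those of GR LKO mice, also without overlap, and *S100a9* was the most abundant of the 6. The sums overlapped for Kupffer and myeloid cells (227, 192 and 252 CPM in the WT livers and 242, 361 and 185 CPM in those of GR LKO mice, *Clec4f* most abundant), sinusoidal endothelial cells (259, 268 and 303 CPM in the WT livers and 287, 317 and 293 CPM in those of GR LKO mice, *Kdr*), stellate cells and fibroblasts (288, 345 and 265 CPM in the WT livers and 280.1, 314 and 313 CPM in those of GR LKO mice, *Dcn*), cholangiocytes (45.9, 46.3 and 61.5 CPM in the WT livers and 66.1, 59.0 and 78.8 CPM in those of GR LKO mice, *Spp1*, with *Epcam* at 0), lymphocytes (3.82, 4.19 and 5.75 CPM in the WT livers and 9.86, 7.61 and 5.13 CPM in those of GR LKO mice, *Cd79a*) and exocrine pancreas (0.595, 1.34 and 0.719 CPM in the WT livers and 0.606, 0.801 and 0.806 CPM in those of GR LKO mice, *Cela2a*, with 7 of 10 genes at 0). By edgeR no marker of these lists was called. DESeq2 called *Cfd* and *Cidec* among 3 adipocyte markers tested, *Lyve1* among 8 endothelial and *Cd79a* among 4 lymphocyte markers tested. All were higher in GR LKO, and the share over all genes was 3.53%. Their part in the results was not tested.

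*Nr3c1* (ENSMUSG00000024431), the deleted gene, read 83.7, 73.3 and 85.3 CPM in the WT livers and 22.5, 22.6 and 23.2 CPM in those of GR LKO mice. Every GR LKO liver held far less than every WT liver, and the GR LKO values lay within 1 CPM of each other. The transcript was 3.55-fold lower (log2 fold change -1.83, SE 0.079, adjusted p = 0.000743), and it kept its call in all 6 fits that each left out 1 mouse. The GR LKO livers held 22.8 ± 0.375 CPM (SD, n = 3), and the cells that this came from were not analysed here.

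Beyond *Nr3c1*, the genotypes differed in a small set of genes at the end of the night. Of 12140 genes tested, 61 were called at an adjusted p under 0.05 by the same test (0.502%), 34 higher (0.28%) and 27 lower (0.222%) in GR LKO. The higher genes include *Fitm1*, *Lpl* and *Acaa1b*, and the lower ones *Slc3a1*, *Gulo* and *Cp*. All 61 had 3 GR LKO values outside the range of the 3 WT values, a pattern held by 2440 of the genes tested (20.1%). The number of calls varied with the tool and with the mice included. DESeq2 called 429 genes (209 higher, 220 lower), all 61 among them. By edgeR there were 21 without WT mouse 1, 11 without WT mouse 2 and 1 without WT mouse 3. It called 103 without GR LKO mouse 1, 10 without GR LKO mouse 2 and 8 without GR LKO mouse 3. Each fit that left out a mouse had fewer livers, which by itself lowers the power to call genes. A call lost in such a fit therefore does not single out the mouse left out. Without WT mouse 3 the gene still called was *Nr3c1*. Without GR LKO mouse 1 the calls include *Serpina3c*, a serpin, which missed the threshold with it (log2 fold change 1.24, adjusted p = 0.476; without it 1.75, adjusted p = 0.0118). The sign of all 61 stayed the same in each of those fits. At an unadjusted p under 0.05 there were 1606 genes.

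**Figure D1:**
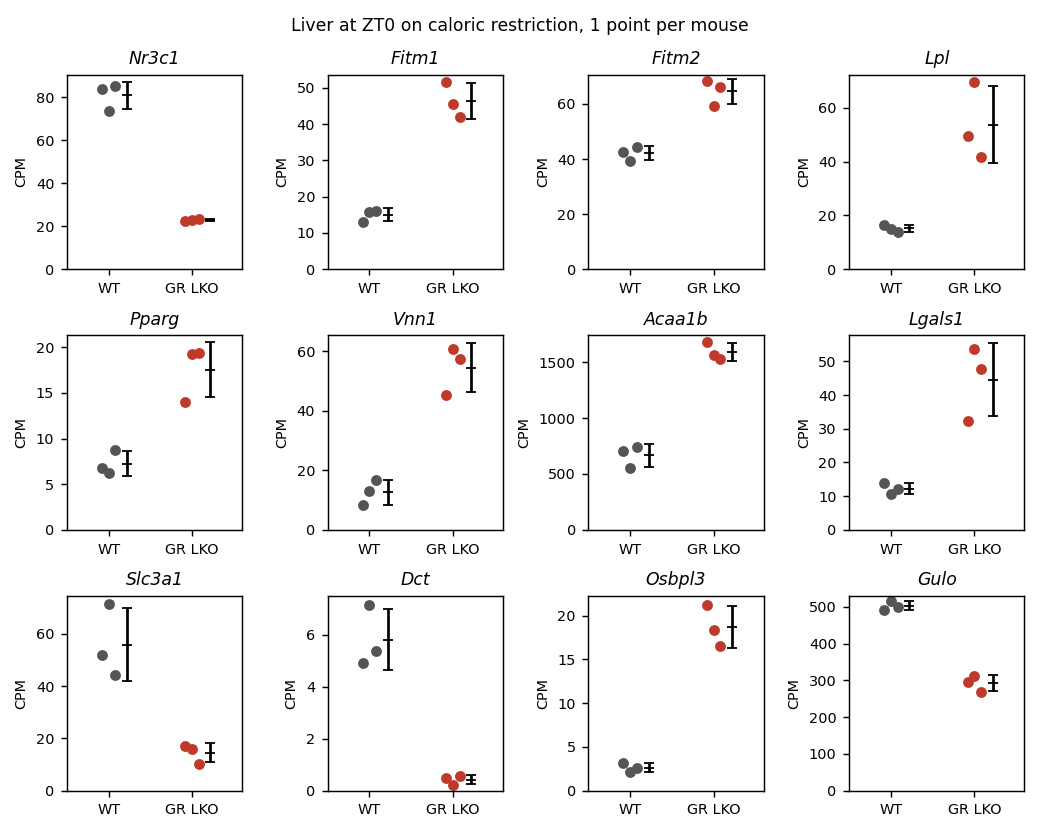
Level in CPM of 12 genes called at ZT0 on caloric restriction in WT and GR LKO livers (n = 3 each), 1 point per mouse, with bars for mean ± SD. No panel shows an overlap between the groups, and *Nr3c1* falls from 80.8 to 22.8 CPM.

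*Fitm1* (ENSMUSG00000022215, chr14:55575617-55576954 on GRCm38), which promotes the budding of lipid droplets from the endoplasmic reticulum, read 12.9, 15.8 and 16.1 CPM in the WT livers and 51.8, 45.5 and 41.9 CPM in those of GR LKO mice. The lowest GR LKO liver lay far above the highest WT liver, a rise of 3.10-fold (log2 fold change 1.63, SE 0.12, adjusted p = 0.01). Its relative *Fitm2* read 42.6, 39.4 and 44.4 CPM in the WT livers and 68.3, 59.4 and 66.1 CPM in those of GR LKO mice, again without overlap (log2 fold change 0.62, SE 0.081, adjusted p = 0.0342). *Lpl* (ENSMUSG00000015568, chr8:68880491-68907448), the lipase that frees fatty acids from circulating lipoproteins, read 16.6, 15.1 and 14.0 CPM in the WT livers and 49.7, 69.6 and 41.7 CPM in those of GR LKO mice. All GR LKO livers were well above WT, with mouse 2 the highest (3.53-fold, log2 fold change 1.82, SE 0.19, adjusted p = 0.0224). *Pparg*, a nuclear receptor of fat storage, read 6.74, 6.19 and 8.80 CPM in the WT livers and 14.0, 19.2 and 19.4 CPM in those of GR LKO mice, with GR LKO mouse 1 nearest to WT (log2 fold change 1.28, SE 0.18, adjusted p = 0.0432). The adipocyte marker sum was also higher in GR LKO, highest in mouse 2 as *Lpl* was, and their part in these results was not tested. *Cidec*, a lipid droplet protein on both lists, read 0.397, 0.781 and 0.240 CPM in the WT livers and 2.64, 5.32 and 3.40 CPM in those of GR LKO mice and missed the threshold (log2 fold change 2.98, SE 0.46, adjusted p = 0.0552). *Fitm1* lost its call without WT mouse 3 (adjusted p up to 0.0659). *Lpl* lost its call without WT mouse 1, 2 or 3 (adjusted p up to 0.094). *Pparg* lost its call without WT mouse 1, 2 or 3 or GR LKO mouse 2 or 3 (adjusted p up to 0.161). *Fitm2* lost its call without any 1 of the 6 mice (adjusted p up to 0.113). In the list for lipogenesis and triglyceride, edgeR called 2 of 30 members tested (6.67%, beside 0.502% of all genes), *Lpl* and *Pparg*, both higher. DESeq2 called 9 (30%, beside 3.53% of all genes), 7 higher and 2 lower. Of the 30 values 21 were positive and 9 negative, and the median log2 fold change was 0.19 beside -0.0025 over all genes tested.

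In the list for fatty acid oxidation and ketogenesis, edgeR called 2 of 38 members tested (5.26%, beside 0.502% of all genes), both higher. *Acaa1b* (ENSMUSG00000010651, chr9:119148023-119157093), a thiolase of peroxisomal fatty acid oxidation, was the most abundant gene called higher and read 707, 550.3 and 741 CPM in the WT livers and 1683, 1564 and 1529 CPM in those of GR LKO mice. Each GR LKO liver exceeded each WT liver by a wide margin (2.39-fold, log2 fold change 1.26, SE 0.12, adjusted p = 0.0165). Its close paralog *Acaa1a* shares sequence with it, so that part of the counts could be assigned to either gene. *Vnn1*, a pantetheinase, read 8.28, 13.2 and 16.7 CPM in the WT livers and 45.2, 60.7 and 57.5 CPM in those of GR LKO mice, and the groups stood clear of each other (4.28-fold, log2 fold change 2.10, SE 0.25, adjusted p = 0.0281). The list had a median log2 fold change of 0.24, with 33 values positive and 5 negative. DESeq2 called 12 members (31.6%, beside 3.53% of all genes), among them *Ehhadh* and *Decr1*, all higher. *Acaa1b* lost its call without WT mouse 1 or 3 or GR LKO mouse 2 or 3 (adjusted p up to 0.0905). *Vnn1* lost its call without WT mouse 2 or 3 or GR LKO mouse 2 or 3 (adjusted p up to 0.116).

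*Osbpl3*, an oxysterol-binding protein relative, read 3.17, 2.12 and 2.58 CPM in the WT livers and 21.3, 18.3 and 16.5 CPM in those of GR LKO mice. Both groups were tight and lay far apart (7.13-fold, log2 fold change 2.83, SE 0.17, adjusted p = 0.00425). *Osbpl3* lost its call without WT mouse 3 (adjusted p up to 0.0659). *Slc22a26*, an organic anion transporter gene with female-biased expression, read 1.49, 1.90 and 2.70 CPM in the WT livers and 28.4, 86.8 and 127 CPM in those of GR LKO mice. It differed among GR LKO mice as well, with mouse 1 the lowest of them (log2 fold change 5.33, SE 0.62, adjusted p = 0.0281). *Slc22a26* lost its call without WT mouse 1, 2 or 3 or GR LKO mouse 2 or 3 (adjusted p up to 0.116). The gene has near relatives (*Slc22a27*, *Slc22a28*, *Slc22a30*), and counts could be shared between them. Of 31 members of the female-biased list 23 passed the filter. *Slc22a26* was the 1 of these that edgeR called (4.35%, beside 0.502% of all genes), and DESeq2 called 10, 9 higher and 1 lower (43.5%, beside 3.53%). The list's median log2 fold change was 1.34, with 11 members not overlapping (47.8% of them, beside 20.1% of all genes). *Cyp2b10*, a drug-inducible cytochrome of that list, read 2.43, 1.34 and 4.79 CPM in the WT livers and 24.3, 22.0 and 61.4 CPM in those of GR LKO mice and missed the threshold (log2 fold change 3.67, SE 0.56, adjusted p = 0.053). The male-biased list had 0 of 27 members called by edgeR and 0 by DESeq2, 1 at an unadjusted p under 0.05, no member without overlap, and a median of -0.39. Its member *C6*, a complement component, read 148, 135 and 156 CPM in the WT livers and 149, 78.1 and 73.4 CPM in those of GR LKO mice, and was called without GR LKO mouse 1 (log2 fold change -0.55, adjusted p = 0.434; without mouse 1 -0.95, adjusted p = 0.0164). *Mup15*, the member under the unadjusted threshold, read 0, 0 and 2.93 CPM in the WT livers and 91.9, 15.3 and 1.32 CPM in those of GR LKO mice, with mouse 1 the highest (adjusted p = 0.238, and 0.457 without mouse 1).

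*Lgals1* (galectin 1), a secreted sugar-binding protein, read 14.0, 10.7 and 12.1 CPM in the WT livers and 32.4, 53.6 and 47.6 CPM in those of GR LKO mice. GR LKO mouse 1 was the lowest of its group and still above every WT liver (3.63-fold, log2 fold change 1.86, SE 0.20, adjusted p = 0.023). *Gprc5b*, an orphan G protein-coupled receptor, was near 0 in WT (0.446, 0.614 and 0.240 CPM) and read 3.63, 9.56 and 4.43 CPM in GR LKO (log2 fold change 3.73, SE 0.51, adjusted p = 0.0351). *Gsta1*, a glutathione transferase with close paralogs that share its sequence, read 16.4, 15.5 and 18.4 CPM in the WT livers and 50.6, 34.5 and 49.3 CPM in those of GR LKO mice (log2 fold change 1.42, SE 0.16, adjusted p = 0.0256). Among abundant genes, *Inmt*, a methyltransferase, averaged 428 ± 19.6 CPM in the WT livers and 709 ± 3.56 CPM in those of GR LKO mice (SD, n = 3). The 3 GR LKO values of *Inmt* were almost equal (log2 fold change 0.73, SE 0.063, adjusted p = 0.0165). *Ddah1*, which breaks down asymmetric dimethylarginine, averaged 151 ± 9.97 CPM in the WT livers and 240.0 ± 12.4 CPM in those of GR LKO mice (SD, n = 3) and also rose (log2 fold change 0.67, SE 0.075, adjusted p = 0.0258). *Gas6*, a ligand of the TAM receptors, averaged 42.2 ± 4.33 CPM in the WT livers and 73.8 ± 7.47 CPM in those of GR LKO mice (SD, n = 3), and *Slc39a4*, a zinc importer, 11.2 ± 0.704 CPM in the WT livers and 20.7 ± 2.39 CPM in those of GR LKO mice (SD, n = 3) (adjusted p = 0.0344 and 0.0303). *Dnase1* held 3 counts in the 3 WT libraries together and 118 in GR LKO, a ratio of 40.7 after scaling (95% exact counting interval 13.6 to 200.01, counting error alone). *Serpinb1c* held 2 and 108 counts, a ratio of 55.8 (15.1 to 467), and *Rufy4* 4 and 70 counts, a ratio of 18.1 (6.76 to 68.2). *Serpinb1c* and its paralog *Serpinb1a*, which read 10.3, 7.14 and 11.2 CPM in the WT livers and 25.0, 21.1 and 30.1 CPM in those of GR LKO mice, share sequence. *Lgals1*, *Gprc5b*, *Ddah1*, *Gas6*, *Dnase1* and *Rufy4* lost their calls without WT mouse 1, 2 or 3 or GR LKO mouse 2 or 3 (adjusted p up to 0.0967, 0.124, 0.116, 0.147, 0.116 and 0.094). *Gsta1* lost its call without WT mouse 1, 2 or 3 or GR LKO mouse 3 (adjusted p up to 0.103). *Inmt* lost its call without WT mouse 2 or 3 or GR LKO mouse 2 or 3 (adjusted p up to 0.0681). *Slc39a4*, *Serpinb1c* and *Serpinb1a* lost their calls without any 1 of the 6 mice (adjusted p up to 0.13, 0.151 and 0.116).

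Among lower genes, *Slc3a1* (ENSMUSG00000024131, chr17:85028376-85064236), a subunit of the transporter for cystine and basic amino acids, read 51.9, 71.4 and 44.3 CPM in the WT livers and 17.2, 15.9 and 10.4 CPM in those of GR LKO mice. The highest GR LKO liver was far below the lowest WT liver (3.85-fold lower, log2 fold change -1.94, SE 0.24, adjusted p = 0.0303). In the list for amino acid catabolism and the urea cycle (40 tested), the median log2 fold change was -0.20, 34 of the 40 had a negative value, and DESeq2 called 13 (32.5%, beside 3.53% of all genes), all lower. *Oat*, an aminotransferase of ornithine, read 1516, 1559 and 1520.2 CPM in the WT livers and 1174, 1138 and 1034 CPM in those of GR LKO mice and missed the threshold (log2 fold change -0.46, SE 0.068, adjusted p = 0.0519; without GR LKO mouse 1 -0.49, adjusted p = 0.0443). *Slc13a3*, a transporter of dicarboxylates on the zonation list, was called lower (20 tested, of which DESeq2 called 7, 35%, all lower, median -0.20). *Slc3a1* lost its call without WT mouse 1, 2 or 3 or GR LKO mouse 2 or 3 (adjusted p up to 0.13). *Slc13a3* lost its call without any 1 of the 6 mice (adjusted p up to 0.171).

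*Gulo*, which catalyses the last step of vitamin C synthesis, read 492, 516 and 500.4 CPM in the WT livers and 297, 311 and 269 CPM in those of GR LKO mice. The groups were tight and apart (1.72-fold lower, log2 fold change -0.78, SE 0.074, adjusted p = 0.0165). *Dct*, a tautomerase known from melanin synthesis, read 4.91, 7.14 and 5.39 CPM in the WT livers and 0.495, 0.229 and 0.576 CPM in those of GR LKO mice, close to 0 in each GR LKO liver (13.4-fold lower, log2 fold change -3.72, SE 0.34, adjusted p = 0.0165). *Fmo5*, a flavin monooxygenase, averaged 726 ± 73.2 CPM in the WT livers and 414 ± 35.6 CPM in those of GR LKO mice (SD, n = 3) and fell (log2 fold change -0.81, SE 0.10, adjusted p = 0.0303). *Amy1*, an amylase gene in a family of near copies, averaged 262 ± 21.3 CPM in the WT livers and 147 ± 7.71 CPM in those of GR LKO mice (SD, n = 3) and was likewise lower (log2 fold change -0.83, SE 0.08, adjusted p = 0.0172). *Avpr1a*, the hepatic vasopressin receptor, read 52.2, 44.3 and 39.9 CPM in the WT livers and 24.9, 24.7 and 27.3 CPM in those of GR LKO mice (log2 fold change -0.83, SE 0.11, adjusted p = 0.0344). *Eif4ebp3*, a repressor of translation initiation, read 10.9, 22.4 and 13.9 CPM in the WT livers and 3.74, 2.23 and 3.34 CPM in those of GR LKO mice, with WT mouse 2 the highest (log2 fold change -2.34, SE 0.32, adjusted p = 0.0351). It was the 1 of 35 members of the insulin and FoxO list called by edgeR and by DESeq2 (2.86%, median -0.01). Over all genes edgeR called 0.502% and DESeq2 3.53%. Both *Cp* (ceruloplasmin) and *F9* (coagulation factor IX), secreted plasma proteins, were lower. *Cp* averaged 1063 ± 41.5 CPM in the WT livers and 756 ± 44.6 CPM in those of GR LKO mice (SD, n = 3) (log2 fold change -0.49, SE 0.07, adjusted p = 0.0439). *F9* averaged 195 ± 8.19 CPM in the WT livers and 141 ± 7.48 CPM in those of GR LKO mice (SD, n = 3) (log2 fold change -0.46, SE 0.068, adjusted p = 0.0457). They were the 2 members called by edgeR of 48 tested in the acute phase and complement list, of which DESeq2 called 11, 3 higher and 8 lower (4.17% by edgeR and 22.9% by DESeq2, beside 0.502% and 3.53% of all genes, median -0.07). *Wfdc21* averaged 251 ± 33.5 CPM in the WT livers and 110.2 ± 18.2 CPM in those of GR LKO mice (SD, n = 3) (log2 fold change -1.19, SE 0.14, adjusted p = 0.0299). *Gulo* and *Fmo5* lost their calls without WT mouse 2 or 3 or GR LKO mouse 2 or 3 (adjusted p up to 0.0747 and 0.13). *Dct* lost its call without WT mouse 2 or 3 or GR LKO mouse 3 (adjusted p up to 0.0659). *Amy1* lost its call without WT mouse 3 or GR LKO mouse 2 or 3 (adjusted p up to 0.0905). *Avpr1a*, *Eif4ebp3*, *Cp* and *F9* lost their calls without any 1 of the 6 mice (adjusted p up to 0.159, 0.147, 0.176 and 0.172). *Wfdc21* lost its call without WT mouse 1, 2 or 3 or GR LKO mouse 2 or 3 (adjusted p up to 0.135).

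*Sqle*, squalene epoxidase of cholesterol synthesis, read 133, 117 and 129 CPM in the WT livers and 84.8, 89.1 and 84.1 CPM in those of GR LKO mice. Each GR LKO liver was below each WT liver (log2 fold change -0.56, SE 0.07, adjusted p = 0.0303). It was the 1 member called of 30 tested in the list for cholesterol synthesis and uptake, but 17 of the 30 had no overlap (56.7%, beside 20.1% of all genes), 17 had an unadjusted p under 0.05 with a lower value in GR LKO, and DESeq2 called 11 (36.7%, beside 3.53% of all genes), all lower, *Mvd*, *Fdps* and *Idi1* among them. The list's median log2 fold change was -0.27. *Cyp51*, which acts later in the same pathway, read 328, 285 and 309 CPM in the WT livers and 212, 232 and 216 CPM in those of GR LKO mice and missed the threshold (log2 fold change -0.48, SE 0.076, adjusted p = 0.0561). *Sqle* lost its call without any 1 of the 6 mice (adjusted p up to 0.13).

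At ZT0, 3 called genes had no count in any GR LKO library and 1 had none in any WT library. *Zswim8* read 7.68, 20.3 and 11.6 CPM in WT, at least 77.6-fold above a floor of 3 counts per GR LKO library. *Tet2* read 9.47, 7.25 and 5.45 CPM in WT and was lower at least 43.5-fold after GR loss, and *E2f6* read 5.30, 4.41 and 6.47 CPM and was lower at least 31.8-fold. *Trip10* read 1.82, 1.20 and 2.19 CPM in GR LKO and was at least 10.6-fold higher. These genes were also at 0 in livers of both genotypes elsewhere: of the 36 libraries on caloric restriction, 16 had no count of *Zswim8*, 20 of *Tet2*, 25 of *E2f6* and 17 of *Trip10*. In 1 fit of all 36 libraries none of the 4 was called at ZT0 (adjusted p = 0.315, 0.271, 0.207 and 0.3). *Zswim8* lost its call without WT mouse 1, 2 or 3 or GR LKO mouse 2 or 3 (adjusted p up to 0.116). *Tet2* lost its call without WT mouse 2 or 3 (adjusted p up to 0.0904). *E2f6* lost its call without WT mouse 1, 2 or 3 (adjusted p up to 0.0665). *Trip10* lost its call without any 1 of the 6 mice (adjusted p up to 0.13).

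Classical GR targets were near the threshold or short of it at the end of the night. Of 26 tested members of a list of 29 GR targets, edgeR called 0, DESeq2 called 3 (*Fkbp5*, *Zbtb16*, *Tdo2*, all lower; 11.5%, beside 3.53% of all genes), and 5 had an unadjusted p under 0.05, all lower. The median log2 fold change was -0.48, with 22 of 26 values negative and 6 members without overlap (23.1%, beside 20.1% of all genes). *Fkbp5*, a chaperone partner of GR, read 30.5, 51.2 and 35.8 CPM in the WT livers and 13.7, 20.2 and 21.3 CPM in those of GR LKO mice. WT mouse 2 was highest, and no GR LKO value reached the WT range (log2 fold change -1.09, SE 0.23, adjusted p = 0.103). *Tdo2*, which starts tryptophan breakdown, read 861, 969.9 and 1072 CPM in the WT livers and 641, 515 and 497 CPM in those of GR LKO mice (log2 fold change -0.81, SE 0.12, adjusted p = 0.053; without GR LKO mouse 1 -0.93, adjusted p = 0.0251). *Zbtb16*, a zinc finger repressor, read 13.3, 15.2 and 12.4 CPM in the WT livers and 6.94, 8.36 and 8.41 CPM in those of GR LKO mice (log2 fold change -0.79, SE 0.12, adjusted p = 0.0571). *Tsc22d3* (GILZ), which carries anti-inflammatory effects of glucocorticoids, read 44.4, 42.9 and 52.2 CPM in the WT livers and 43.4, 37.8 and 46.3 CPM in those of GR LKO mice, with overlapping groups (log2 fold change -0.13, SE 0.11, adjusted p = 0.654). *Pck1*, the enzyme that commits carbon to gluconeogenesis, read 1247, 1478 and 646 CPM in the WT livers and 1209, 343 and 361 CPM in those of GR LKO mice. GR LKO mouse 1 was at the WT level, while mice 2 and 3 lay below every WT liver (log2 fold change -0.82, SE 0.54, adjusted p = 0.573; without mouse 1 -1.67, adjusted p = 0.0953). *Tat*, tyrosine aminotransferase, had the same pattern, at 958, 1076 and 702 CPM in the WT livers and 999, 573 and 416 CPM in those of GR LKO mice (log2 fold change -0.46, SE 0.32, adjusted p = 0.59; without mouse 1 -0.88, adjusted p = 0.146). For *Bcl6* the log2 fold change was 2.25 with mouse 1 (adjusted p = 0.434) and -0.17 without it (adjusted p = 0.906).

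In the core clock and its output, edgeR called 0 of 20 genes tested and DESeq2 0, with 1 at an unadjusted p under 0.05. The median log2 fold change was -0.02, and 1 gene, *Csnk1e*, had no overlap (5% of the list, beside 20.1% of all genes). *Arntl* (BMAL1), the activator of the clock, read 23.3, 28.3 and 32.6 CPM in the WT livers and 35.8, 23.1 and 26.8 CPM in those of GR LKO mice. *Nr1d1* (REV-ERBα), its repressor, read 49.3, 67.4 and 35.9 CPM in the WT livers and 38.8, 68.7 and 85.4 CPM in those of GR LKO mice. Both genes overlapped between the genotypes. *Per1*, a clock repressor that GR also targets, read 3.07, 3.24 and 2.04 CPM in the WT livers and 2.15, 1.95 and 1.61 CPM in those of GR LKO mice (log2 fold change -0.55, SE 0.26, adjusted p = 0.425).

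Several further lists held no gene called by edgeR. Over all genes tested, 13.2% had an unadjusted p under 0.05, DESeq2 called 3.53% and edgeR 0.502%. For gluconeogenesis and glycogen (26 tested, 7 at an unadjusted p under 0.05, 4 in DESeq2, median -0.19), the genes called by DESeq2 were all lower, *Slc37a4*, *Pklr* and *Pygl* among them. *Slc37a4*, the glucose-6-phosphate transporter, read 84.1, 110.4 and 99.4 CPM in the WT livers and 51.0, 53.2 and 65.4 CPM in those of GR LKO mice (log2 fold change -0.79, SE 0.13, adjusted p = 0.0654). For bile acid synthesis and transport (27 tested, 9 at an unadjusted p under 0.05, 8 in DESeq2, median -0.19), DESeq2 called 2 higher and 6 lower. *Cyp27a1*, a bile acid hydroxylase, averaged 603 ± 52.3 CPM in the WT livers and 439.9 ± 29.6 CPM in those of GR LKO mice (SD, n = 3) (log2 fold change -0.46, SE 0.088, adjusted p = 0.0887). Interferon-stimulated genes (29 tested, 14 at an unadjusted p under 0.05, 4 in DESeq2, median 0.37) included *Rsad2*, an antiviral enzyme, at 14.4, 12.0 and 13.6 CPM in the WT livers and 19.4, 21.5 and 26.6 CPM in those of GR LKO mice. All 14 of those past the unadjusted threshold were higher in GR LKO. The growth hormone and IGF1 axis (17 tested, 5 at an unadjusted p under 0.05, 2 in DESeq2, median 0.11) included *Igfbp3*, a carrier of IGF1, at 14.8, 16.6 and 15.6 CPM in the WT livers and 24.3, 21.9 and 32.0 CPM in those of GR LKO mice (log2 fold change 0.73, SE 0.15, adjusted p = 0.0925). The remaining lists without a call were protein folding stress (33 tested, 8 at an unadjusted p under 0.05, 1 in DESeq2, median -0.14, *Atf5* with log2 fold change -0.42, adjusted p = 0.224, and without GR LKO mouse 1 -0.57, adjusted p = 0.0375), autophagy and lysosome (29 tested, 3 at an unadjusted p under 0.05, 1 in DESeq2, median -0.09), the cytosolic ribosome (73 tested, 9 at an unadjusted p under 0.05, 2 in DESeq2, median 0.08), oxidative phosphorylation (57 tested, 3 at an unadjusted p under 0.05, 0 in DESeq2, median -0.03), the proteasome (33 tested, 6 at an unadjusted p under 0.05, 0 in DESeq2, median -0.08) and the cell cycle (20 tested, 4 at an unadjusted p under 0.05, 0 in DESeq2, median 0.21). edgeR called *Gsta1* (higher) and *Fmo5* (lower) in xenobiotic metabolism (65 tested, 28 at an unadjusted p under 0.05, 18 in DESeq2, median -0.15), where DESeq2 called 6 higher and 12 lower. It called *Slc39a4* (higher) and *Cp* (lower) in metal handling (17 tested, 4 at an unadjusted p under 0.05, 3 in DESeq2, median -0.09) and *Gsta1* in NRF2 targets (22 tested, 9 at an unadjusted p under 0.05, 1 in DESeq2, median -0.04).

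**Figure D2:**
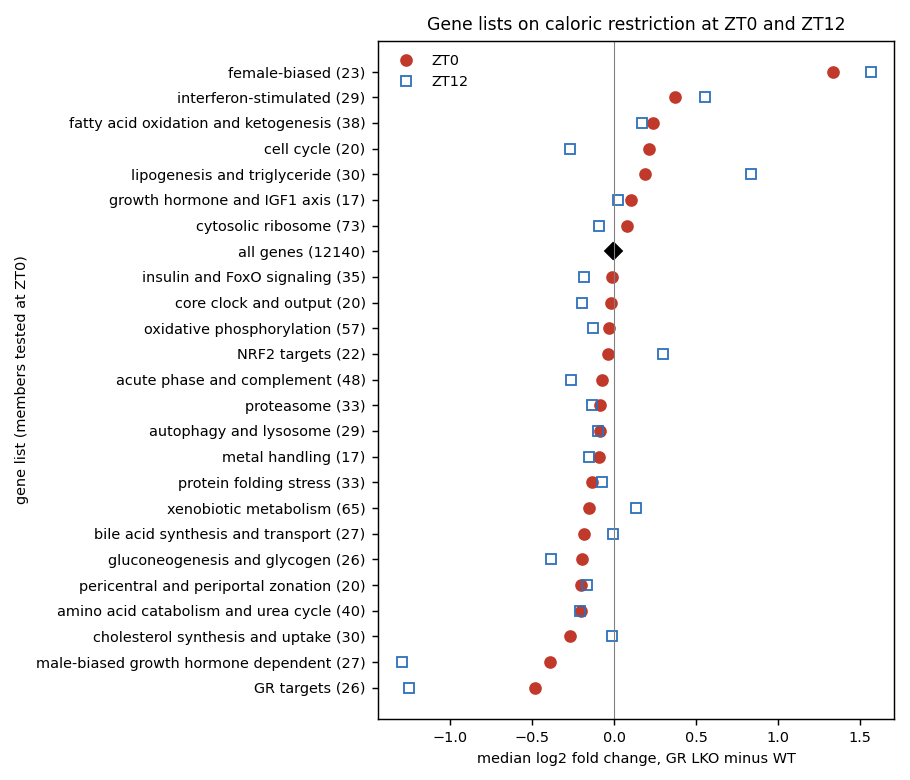
Median log2 fold change (GR LKO minus WT) of each gene list on caloric restriction at ZT0 (filled) and ZT12 (open), with the number of members tested at ZT0, and all genes tested as a diamond. The female-biased list lies highest at ZT0 (1.34) and the GR targets lowest (-0.48).

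The number of genes that differed between the genotypes varied over the day on caloric restriction. By the same test it was 61 at ZT0, 83 of 12025 at ZT4 (0.69%), 308 of 12070 at ZT8 (2.55%), 1795 of 11759 at ZT12 (15.3%), 541 of 11905 at ZT16 (4.54%) and 178 of 12076 at ZT20 (1.47%). Leaving out 1 mouse moved these counts by over 1.5 times at each of the times. At ZT4 it was 23, 16 and 127 without WT mouse 1, 2 or 3 and 31, 13 and 37 without GR LKO mouse 1, 2 or 3. ZT8 gave 171 without WT mouse 3 and 56, 77 and 65 without GR LKO mouse 1, 2 or 3, and ZT12 gave 1099 and 1032 without WT mouse 2 or 3 and 1193, 1137 and 899 without GR LKO mouse 1, 2 or 3. ZT16 gave 234, 339 and 329 without WT mouse 1, 2 or 3 and 346, 307 and 236 without GR LKO mouse 1, 2 or 3. ZT20 gave 18, 22 and 16 without WT mouse 1, 2 or 3 and 82 without GR LKO mouse 2. The time points share no mice. Of the 61 genes called at ZT0, 15 were called in the same direction at ZT4 (24.6% of the 61 and 18.1% of the calls there), 34 at ZT8 (55.7% and 11.04%), 42 at ZT12 (68.9% and 2.34%), 47 at ZT16 (77.05% and 8.69%) and 29 at ZT20 (47.5% and 16.3%). Called in the same direction at every time point were 10 genes: *Nr3c1*, *Acaa1b*, *Eif4ebp3*, *Ermp1*, *Fitm1*, *Gfra1*, *Gprc5b*, *Lgals1*, *Slc3a1* and *Wfdc21*. *Slc3a1*, for one, had log2 fold changes from -1.92 at ZT4 to -2.83 at ZT16, and *Lgals1* from 1.86 at ZT0 to 3.26 at ZT12. *Gfra1*, a receptor subunit for GDNF, was lower at all 6 times (log2 fold change -0.72 at ZT0 and -1.97 at ZT12). At none of the other times were 11 of the 61 called in the same direction, among them *Lpl*, *Slc39a4*, *Rmdn2*, *Pcp4l1* and *Thnsl2*. For *Lpl* the log2 fold change was 1.82 at ZT0 and 0.73, 1.14, 1.12, 0.35 and 1.54 at ZT4 to ZT20, positive at all 6 times, and its interaction with ZT12 was not called (adjusted p = 0.485). *Tecpr2*, an autophagy gene, was called higher at ZT0 (0.69) and lower at ZT12 (-0.53). At ZT0 these calls changed when 1 mouse was left out. *Ermp1* lost its call without WT mouse 3 (adjusted p up to 0.0659). *Gfra1* lost its call without WT mouse 1 or 3 or GR LKO mouse 2 or 3 (adjusted p up to 0.116). *Pcp4l1* lost its call without WT mouse 1, 2 or 3 or GR LKO mouse 2 or 3 (adjusted p up to 0.116). *Rmdn2*, *Thnsl2* and *Tecpr2* lost their calls without any 1 of the 6 mice (adjusted p up to 0.137, 0.142 and 0.151).

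**Figure D3:**
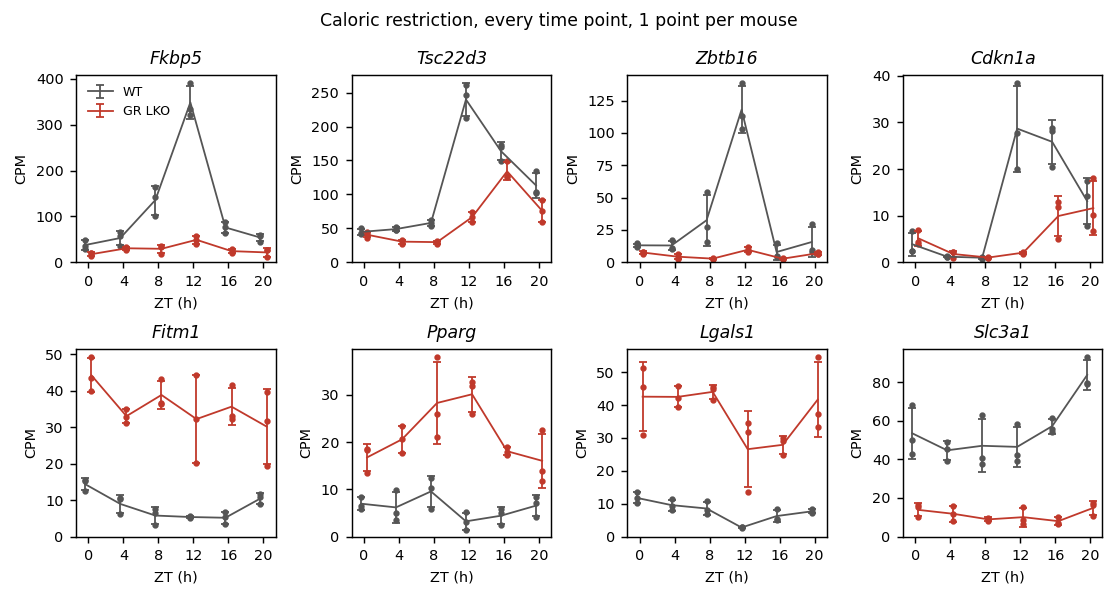
Level in CPM, scaled over all 36 libraries on caloric restriction, of 8 genes in WT and GR LKO livers against time (ZT, h), 1 point per mouse (n = 3 per genotype and time), lines and bars giving mean ± SD. *Fkbp5* in WT averages 37.6 CPM at ZT0 and 348 CPM at ZT12, and *Slc3a1* lies lower in GR LKO at every time.

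At ZT12 edgeR called 20 of 29 GR targets, all lower, beside 15.3% of all genes tested at that time. The difference between ZT0 and ZT12 was tested itself. Scaled over all 36 libraries, *Fkbp5* read 29.4, 49.0 and 34.4 CPM in the WT livers and 13.0, 19.3 and 20.3 CPM in those of GR LKO mice at ZT0. At ZT12 it read 334, 321 and 390.2 CPM in the WT livers and 57.3, 49.2 and 40.4 CPM in those of GR LKO mice. At both times every GR LKO liver lay below every WT liver, by far more at ZT12, and the genotype effect at ZT0 minus that at ZT12 was 1.75 (SE 0.30, adjusted p = 0.00956) on the log2 scale. *Tsc22d3* read 212, 246 and 261 CPM in the WT livers and 59.0, 74.4 and 66.0 CPM in those of GR LKO mice at ZT12 (interaction 1.73 (SE 0.17, adjusted p = 0.00046)), and *Zbtb16* 138, 103 and 113 CPM in the WT livers and 11.7, 7.55 and 9.65 CPM in those of GR LKO mice (interaction 2.83 (SE 0.23, adjusted p = 0.000282)). *Cdkn1a* (p21), an inhibitor of the cell cycle, read 2.48, 6.72 and 2.42 CPM in the WT livers and 7.02, 4.00 and 4.41 CPM in those of GR LKO mice at ZT0 and 38.4, 20.01 and 27.6 CPM in the WT livers and 1.84, 2.09 and 2.26 CPM in those of GR LKO mice at ZT12. It overlapped at ZT0 and was far lower in GR LKO at ZT12 (interaction 4.22 (SE 0.57, adjusted p = 0.00313)). Of 12494 genes tested for this interaction, 478 were called (3.83%), 238 positive and 240 negative, and DESeq2 called 954. Of 29 GR targets, 11 were called (37.9%), all with a less negative or more positive effect at ZT0; besides those 4 they were *Klf9*, *Mt1*, *Mt2*, *Igfbp1*, *Ddit4*, *Cebpb* and *Angptl4*. *Fkbp5*, *Tsc22d3*, *Zbtb16*, *Cdkn1a*, *Klf9*, *Mt1* and *Mt2* kept their interaction call in all 12 fits without 1 mouse. *Igfbp1* lost its call without ZT0 WT mouse 2 or 3, or ZT0 GR LKO mouse 1, or ZT12 GR LKO mouse 2 or 3 (adjusted p up to 0.0608). *Angptl4* lost its call without ZT0 WT mouse 1, 2 or 3, or ZT0 GR LKO mouse 3, or ZT12 WT mouse 2 or 3, or ZT12 GR LKO mouse 1 or 2 (adjusted p up to 0.0684). *Ddit4* lost its call without ZT0 WT mouse 1 or 2, or ZT0 GR LKO mouse 2 or 3, or ZT12 WT mouse 2 or 3, or ZT12 GR LKO mouse 1, 2 or 3 (adjusted p up to 0.0939). *Cebpb* lost its call without ZT0 WT mouse 1, 2 or 3, or ZT0 GR LKO mouse 1, 2 or 3, or ZT12 WT mouse 2 or 3, or ZT12 GR LKO mouse 1, 2 or 3 (adjusted p up to 0.105). The count was 286 without ZT0 WT mouse 3, 305 without ZT0 GR LKO mouse 2, 305 without ZT0 GR LKO mouse 3 and 308 without ZT12 GR LKO mouse 3.

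Of the 478 genes, 476 were tested at both times, and the effect was larger in size at ZT12 in 462 and at ZT0 in 14. Its sign was opposite at the 2 times in 260 of the 476. At ZT12 444 of them were called and at ZT0 10, so most of the signs at ZT0 belong to genes not called there. Among the 61 genes called at ZT0, 10 had an interaction called, among them *Pparg*, *Tango2*, *Tecpr2*, *Gfra1*, *Fmo5*, *Gas6*, *Tgm2*, *Gsta1* and *Eif4ebp3*. The effect was larger at ZT12 in all 10 but *Tecpr2*, where it was larger at ZT0 (interaction 1.22 (SE 0.15, adjusted p = 0.0018)). *Fmo5* was lower by a log2 fold change of -0.81 at ZT0 and -2.22 at ZT12 (interaction 1.41 (SE 0.15, adjusted p = 0.000628)), and *Eif4ebp3* by -2.34 and -4.79 (interaction 2.46 (SE 0.39, adjusted p = 0.00664)). *Gsta1* was higher by 1.42 and 3.26 (interaction -1.83 (SE 0.33, adjusted p = 0.0124)). *Pparg* rose by 1.28 and 3.25 (interaction -1.97 (SE 0.44, adjusted p = 0.0329)). The clock genes *Arntl* (interaction 2.56 (SE 0.63, adjusted p = 0.0492)) and *Cry1* (1.07 (SE 0.25, adjusted p = 0.039)), a repressor, were called too. *Pparg* lost its call without ZT0 WT mouse 1 or 3, or ZT0 GR LKO mouse 1, 2 or 3, or ZT12 WT mouse 2, or ZT12 GR LKO mouse 1 or 3 (adjusted p up to 0.0855). *Arntl* lost its call without ZT0 WT mouse 1, 2 or 3, or ZT0 GR LKO mouse 1, 2 or 3, or ZT12 WT mouse 1 or 3, or ZT12 GR LKO mouse 1 or 2 (adjusted p up to 0.11). *Cry1* lost its call without ZT0 WT mouse 1 or 2, or ZT0 GR LKO mouse 1 or 2, or ZT12 WT mouse 1, 2 or 3, or ZT12 GR LKO mouse 1, 2 or 3 (adjusted p up to 0.0921). *Fitm1*, *Lgals1*, *Slc3a1* and *Nr3c1* were not called for a difference between the times (adjusted p = 0.14, 0.124, 0.808 and 0.556).

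Against ZT4, 4 h later, edgeR called 0 of 12535 genes for a difference of the genotype effect (0%), with 685 at an unadjusted p under 0.05, and DESeq2 called 14. *Fitm1* had log2 fold changes of 1.63 at ZT0 and 1.88 at ZT4, *Eif4ebp3* -2.34 and -2.72, and *Vnn1* 2.10 and 2.20. The count was 2 without ZT4 WT mouse 1, and 1 without ZT0 WT mouse 3, ZT0 GR LKO mouse 1, ZT4 WT mouse 3, ZT4 GR LKO mouse 2 or ZT4 GR LKO mouse 3.

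On the control diet at ZT0, 63 of 11749 genes were called by the same test (0.536%), 52 higher and 11 lower in GR LKO. The count was 4 without WT mouse 1, 3 without WT mouse 2, 9 without GR LKO mouse 1, 14 without GR LKO mouse 2 and 3 without GR LKO mouse 3. *Nr3c1* read 75.3, 79.7 and 76.9 CPM in the WT livers and 16.5, 19.8 and 21.4 CPM in those of GR LKO mice, far lower in each GR LKO liver (log2 fold change -2.01, adjusted p = 0.00204). From the 61 genes of caloric restriction, 12 were called in the same direction on the control diet (19.7% of the 61 and 19.05% of the calls there). They include *Slc22a26* at 0.824, 0.780 and 0.366 CPM in the WT livers and 21.2, 16.4 and 23.5 CPM in those of GR LKO mice (log2 fold change 4.95, adjusted p = 0.00204). *Vnn1* read 11.9, 6.67 and 10.4 CPM in the WT livers and 69.1, 41.0 and 40.7 CPM in those of GR LKO mice (log2 fold change 2.39, adjusted p = 0.0337), again without overlap. *Fitm1* read 41.5, 24.3 and 29.0 CPM in the WT livers and 92.9, 94.1 and 69.9 CPM in those of GR LKO mice (log2 fold change 1.44, adjusted p = 0.0452), and *Avpr1a* 44.9, 53.3 and 37.0 CPM in the WT livers and 19.6, 21.0 and 21.0 CPM in those of GR LKO mice (log2 fold change -1.13, adjusted p = 0.0351). *Lpl*, called on caloric restriction, overlapped on the control diet at 17.4, 13.8 and 44.9 CPM in the WT livers and 15.4, 15.5 and 31.0 CPM in those of GR LKO mice (log2 fold change -0.30, adjusted p = 0.81). *Gulo* read 364, 384 and 349 CPM in the WT livers and 289.7, 375 and 319 CPM in those of GR LKO mice there (log2 fold change -0.16, adjusted p = 0.559), with 1 GR LKO liver within the WT range, and *Wfdc21* 247, 239 and 186 CPM in the WT livers and 234, 232 and 179 CPM in those of GR LKO mice (log2 fold change -0.06, adjusted p = 0.888). The libraries of the diets carry separate series of numbers, and whether they were prepared together is not given in the sources used here. Levels are therefore not compared between diets, and the diet's effect on the genotype difference was tested as an interaction. By edgeR 0 of 12455 genes passed (0%), with 1266 at an unadjusted p under 0.05, and DESeq2 called 150. The count was 1 without WT mouse 2 on caloric restriction, and 1 without WT mouse 2 or GR LKO mouse 2 on the control diet.

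Promoters of the called genes were read for elements of GR and of the clock. RefSeq promoters (GRCm38.p6, 250 bases before to 50 after the gene start) were at hand for 46 of the 61 genes. An exact GR element (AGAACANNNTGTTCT) occurred in 3 of 32851 promoters (0.00913%), in 2 of 9423 tested genes (0.0212%) and in 0 of the 26 higher and 0 of the 20 lower genes. At shares this low, 46 genes are too few to hold a match, so the 0 does not describe GR binding. Inexact elements and regions outside this window were not searched. Shares of all promoters count promoters, and shares of tested genes count genes. The E-box CACGTG stood in 7.15% of all promoters and 11.6% of tested genes, in 3 higher genes (*Dnase1*, *Galk1*, *Pigp*) and 1 lower gene (*Slc13a3*). The D-box (TTATGTAA or TTACGTAA), bound by the clock output factors DBP, TEF and HLF, stood in 1.06% of all promoters and 0.934% of tested genes. It stood in *Slc22a26* among higher genes and in *Atp2b2* and *Ces1b* among lower genes. The ROR element (AAAGGTCA or TAAGGTCA) stood in 2.2% of all promoters and 1.93% of tested genes. It stood in *Serpinb1c* among higher genes and in *Dct* and *F9* among lower genes. Both strands were searched, and a match is a description of letters. The 4 promoters shown are called genes with a D-box (*Slc22a26*, chr19:7802618-7802917, minus strand; *Ces1b*, chr8:93079891-93080190, minus strand) or a ROR element (*Dct*, chr14:118052197-118052496, minus strand; *F9*, chrX:59999214-59999513, plus strand), each 5′ to 3′ with the element in capitals. *Ces1b*, a carboxylesterase in a family of near copies, read 98.5, 115 and 97.9 CPM in the WT livers and 58.2, 60.4 and 59.3 CPM in those of GR LKO mice and fell (log2 fold change -0.81, SE 0.08, adjusted p = 0.0182). *Ces1b* lost its call without WT mouse 3 or GR LKO mouse 2 or 3 (adjusted p up to 0.106). *Galk1* and *Pigp* lost their calls without WT mouse 1, 2 or 3 or GR LKO mouse 2 or 3 (adjusted p up to 0.14 and 0.147). *Atp2b2* lost its call without any 1 of the 6 mice (adjusted p up to 0.15).
Slc22a26: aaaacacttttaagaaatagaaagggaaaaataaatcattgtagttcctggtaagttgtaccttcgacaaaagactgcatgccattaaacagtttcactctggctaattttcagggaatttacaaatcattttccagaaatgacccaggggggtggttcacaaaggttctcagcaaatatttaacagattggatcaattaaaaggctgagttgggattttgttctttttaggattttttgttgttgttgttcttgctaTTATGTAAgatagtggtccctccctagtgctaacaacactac
Ces1b: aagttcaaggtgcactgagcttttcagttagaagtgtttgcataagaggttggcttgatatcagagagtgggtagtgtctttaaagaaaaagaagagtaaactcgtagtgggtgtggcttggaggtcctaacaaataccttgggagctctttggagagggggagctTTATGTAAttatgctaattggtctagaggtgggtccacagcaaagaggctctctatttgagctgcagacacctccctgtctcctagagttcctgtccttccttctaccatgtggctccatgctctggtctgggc
Dct: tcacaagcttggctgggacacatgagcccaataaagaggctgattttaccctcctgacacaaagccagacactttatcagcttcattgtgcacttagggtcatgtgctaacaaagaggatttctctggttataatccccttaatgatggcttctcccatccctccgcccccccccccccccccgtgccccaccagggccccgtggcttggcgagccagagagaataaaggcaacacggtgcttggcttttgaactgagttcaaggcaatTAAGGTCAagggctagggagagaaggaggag
F9: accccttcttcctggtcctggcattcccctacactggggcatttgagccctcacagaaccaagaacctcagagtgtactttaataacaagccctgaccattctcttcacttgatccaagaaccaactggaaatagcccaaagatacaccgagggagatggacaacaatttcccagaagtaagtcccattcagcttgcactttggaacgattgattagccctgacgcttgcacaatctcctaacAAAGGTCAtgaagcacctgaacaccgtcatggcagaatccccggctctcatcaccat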

How the data were processed

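Poly(A) RNA of mouse livers was sequenced. The authors quantified reads with Salmon, summed transcripts to genes with tximport and deposited expected counts (estimated counts per gene, not normalized). Of 27654 gene IDs, 27244 matched a symbol in GENCODE vM21 (GRCm38), which also gave the coordinates. Counts were rounded and fitted with edgeR 4.0.16 in R 4.3.3 (quasi-likelihood F test, TMM scaling, filterByExpr at a minimum count of 10) on the 6 libraries of each comparison, or on the 12 libraries of each interaction; p-values were adjusted by Benjamini-Hochberg and called under 0.05. The SE is the log2 fold change divided by the square root of F. CPM in the time course were scaled over all 36 libraries. Promoters were read in Python 3.11.15.

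The members and lists were chosen with earlier results of these data known. Genes named are *Nr3c1*; the 12 that rose and 12 that fell most among called genes with at least 5 CPM in the higher group and no overlap; the 4 most abundant called in each direction; up to 4 called members of each of 24 lists, or the 2 with the smallest p; all GR targets and clock genes; the 3 largest interactions in each direction; and markers. *Fitm2*, *Gas6*, *Dnase1*, *Rufy4*, *Serpinb1c*, *Trip10*, *Ces1b*, *Tecpr2*, *Gfra1* and other called genes outside this rule were chosen after their values were seen. Alternatives were DESeq2 1.42.0, RLE and upper-quartile scaling, other filters, an adjusted p under 0.01, replicate number as a block, 1 fit of all 36 libraries and leaving out each mouse. Counting intervals and floors cover counting error alone. Tables of the corticosterone experiment and of the diet comparison in other mice were left out, since they hold no ZT0 libraries.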

Additional observations from a re-analysis of the deposited data

Results flagged for a closer look

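The genotype effect differed between ZT0 and ZT12 on caloric restriction, by a test of the difference itself, in 478 genes.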

How the results depend on the processing

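All 61 genes called at ZT0 kept their sign under every alternative in which they were tested, and the number called moved with most of them. RLE scaling gave 61 genes, upper-quartile scaling 61 (59 of the 61 among them), no filter on low counts 74, a filter at 1 CPM in every group 43 and an adjusted p under 0.01 gave 2. DESeq2 gave 429, and 1 fit of all 36 libraries gave 169, with 41 of the 61. The 20 not called in that edgeR fit include *Slc39a4*, *Cp*, *Gsta1*, *Serpinb1a*, *Pparg*, *Slc13a3*, *Avpr1a* and *Sqle*. Their adjusted p there lay between 0.0704 (*Sqle*) and 0.617 (*Slc39a4*). Leaving out 1 mouse gave 1 to 103 genes. The replicate number as a block gave 9 genes (6 of the 61) at ZT0 and 307 for the interaction with ZT12; the numbers are not stated to pair the mice, and the deviations of mice with the same number were not correlated across genes (r = -0.0143, 0.0175 and -0.104), where genes are not independent replicates. The cause of these differences was not tested.

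For the interaction of ZT0 with ZT12, DESeq2 gave 954 genes and leaving out 1 mouse 286 to 466. With ZT4, DESeq2 gave 14, no filter 1 and leaving out 1 mouse 0 to 2. With the control diet, DESeq2 gave 150, no filter 1 and leaving out 1 mouse 0 to 1. DESeq2 gave 451 genes at ZT4, 712 at ZT8, 2068 at ZT12, 940 at ZT16, 709 at ZT20 and 417 at ZT0 on the control diet. Leaving out 1 mouse, added for these 6 comparisons after seeing the data, gave 13 to 127, 56 to 315, 899 to 1329, 234 to 346, 16 to 194 and 3 to 81 genes in that order.

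Of the named genes not called, 12 changed sign when 1 mouse was left out, with log2 fold changes at ZT0 of *Arntl* -0.16 to 0.16, *Bcl6* -0.17 to 2.75, *Cebpb* -0.19 to 0.060, *Cry1* -0.39 to 0.011, *Csnk1d* -0.0095 to 0.051, *Gadd45b* -0.14 to 0.37, *Igfbp1* -0.66 to 0.044, *Mertk* -0.12 to 0.019, *Mt1* -0.54 to 0.094, *Nr1d2* -0.12 to 0.31, *Sgk1* -0.37 to 0.15 and *Tef* -0.16 to 0.051. Genes under 1 CPM rest on few counts, and differences among them may not be detectable at this depth.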
